A study of Mus musculus with 6 samples.

Results

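Visual cortex of mice with 2 mutant alleles of Mmp9 was compared with that of mice with 1 mutant allele. In the allele, named UTRmut in the labels, an untranslated region of Mmp9 is mutated. The comparison took 4 of the 6 libraries of the series: the homozygotes (UTRmut/UTRmut, below UTRmut) and the heterozygotes (UTRmut/WT, below het), each with 1 female as replicate 1 and 1 male as replicate 2. The wild types (WT/WT, below WT), also 1 female and 1 male, had no weight in the contrast but took part in the estimate of the spread, and their values are given as a reference. The mice were of the strain B6.CBA/Tar, at postnatal day 28, and untreated as far as the labels say. Phenol/chloroform was used to extract total RNA, which was made into libraries with the TruSeq Stranded Total RNA kit, which depletes ribosomal RNA and keeps unspliced and non-polyadenylated RNA. Every het and UTRmut mouse carried at least 1 mutant allele, so the contrast addresses the second copy and not the presence of the mutation. The labels give neither the untranslated region nor the bases that were changed, and say nothing of how the allele was made, of litters or of pooled animals. With 1 library for each sex and genotype, p-values reflect no more than the spread among these libraries, and that spread may be technical in part.

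Mmp9 encodes matrix metalloproteinase 9, a gelatinase that neurons and glia secrete as an inactive proenzyme and that cuts extracellular matrix and adhesion proteins around synapses. Tissue inhibitors of metalloproteinases (the Timp genes) bind and block the active enzyme. In neurons Mmp9 mRNA is known to travel into dendrites and to be translated near synapses after activity, and untranslated regions are where proteins that hold or release an mRNA for translation bind. A change in such a region can act on the place or the amount of protein made without any change in the mRNA level, which is the quantity that was counted.

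The het libraries held 9500090 and 10598963 counts and the UTRmut libraries 10916813 and 11966579 (female, then male, as in every pair of values below). Levels are given in counts, or in CPM, counts scaled to library size with TMM factors (the trimmed mean of M-values). Log2 folds are UTRmut against het, with the replicate number as a block. The cortical marker Slc17a7, the vesicular glutamate transporter of excitatory neurons, had 887 and 875 CPM in het and 949 and 948 in UTRmut. The Y-linked Ddx3y had 931 to 1055 counts in the libraries labelled male and 0 to 3 in those labelled female. Xist, the RNA that silences an X chromosome in females, had 15 and 5 counts in the het and UTRmut males and 268 in the WT male, against 6164 to 7056 in the females. The counts of calls without that library and without each other library are given with the calls.

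Mmp9 itself was scarce at both doses of the allele. The gene lies on chromosome 2, 164940780 to 164955850 of GRCm38. It had 9 and 9 counts in het and 8 and 16 in UTRmut, beside 4 and 9 in WT, or 0.937 and 0.841 CPM in het and 0.747 and 1.39 in UTRmut. The groups overlapped: the female UTRmut library was below both het libraries and the male UTRmut library above them. The ratio of the summed counts, scaled to library size, was 1.22 (exact 95% interval 0.635 to 2.39, counting error only), and the log2 fold was 0.26 (SE 0.52), which missed the threshold (adjusted p = 0.9995 by edgeR with Benjamini-Hochberg). That interval leaves out the spread between libraries and is not a detection limit of the test. At this depth, the counts do not tell apart the ratios within that interval, and differences in Mmp9 mRNA outside it may also have been missed. Among the 86 tested genes that start within 5 Mb of Mmp9, 50 had a positive and 36 a negative log2 fold, with a median of 0.03. None of them passed (edgeR), and 1 (1.16%, against 3.53% of all genes) had an unadjusted p under 0.05, Zfp335, a zinc finger regulator of transcription next to Mmp9 (log2 fold -0.32, SE 0.12).

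Few genes passed the threshold between homozygotes and heterozygotes in the fit of all 6 libraries. Of 16119 genes tested, 5 passed at an adjusted p under 0.05 (0.031%), 2 higher in UTRmut (0.0124%) and 3 lower (0.0186%). At an unadjusted p under 0.05 there were 569 (3.53%), 200 higher (1.24%) and 369 lower (2.29%). All 5 that passed were noncoding or uncharacterised: CT010467.1 and mt-Rnr1, both ribosomal RNAs, rose, and Rn7s1, Gm37176 and 4833420G17Rik fell. DESeq2 called 6 genes of 29319 (0.0205%), 3 in each direction (0.0102% each): these 5 and the pseudogene Rpsa-ps10. The number of calls depended on the libraries in the fit. Without the WT female it was 44 higher and 61 lower, and without the WT male 45 and 61. It was 0 and 3 without either het library, 7 and 9 without the UTRmut female and 4 and 2 without the UTRmut male.

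**Figure D1:**
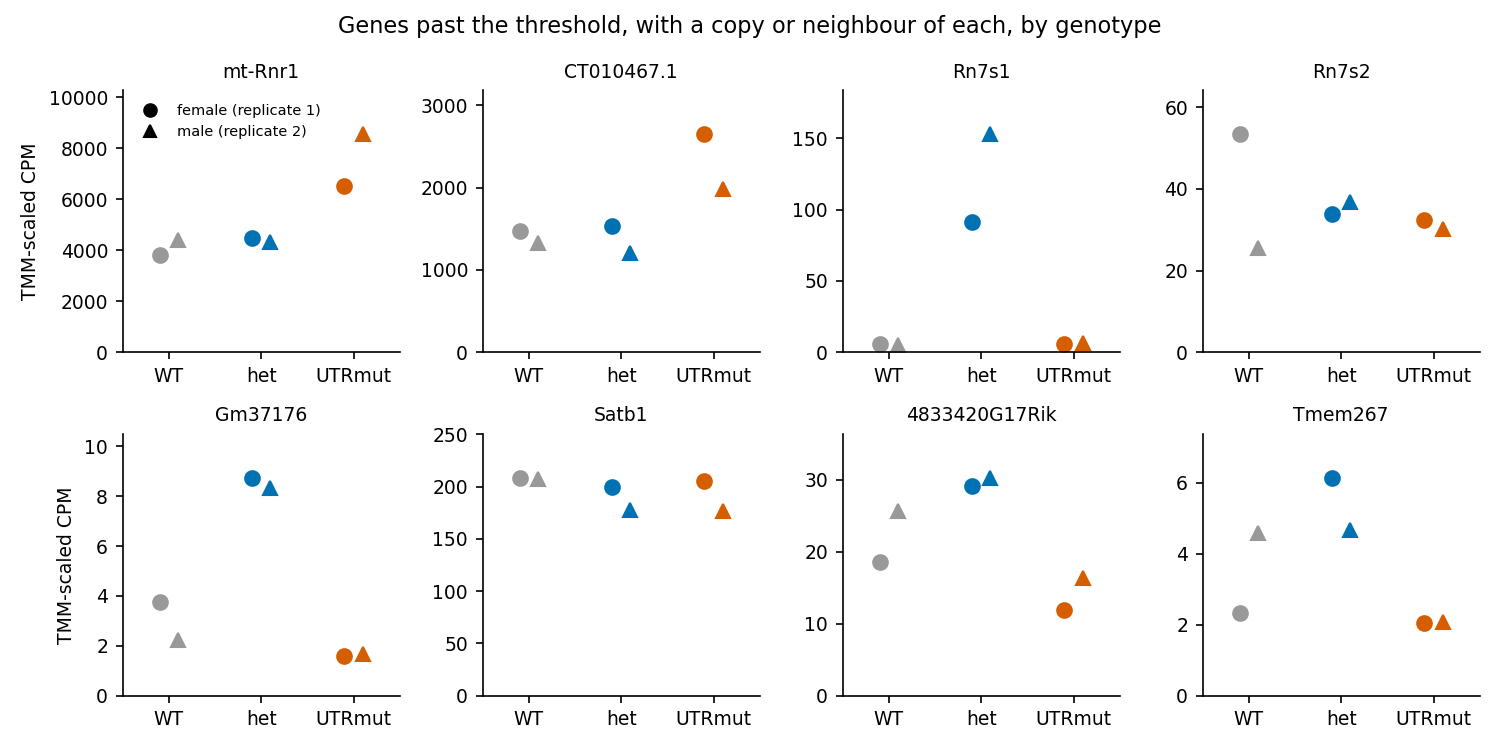
TMM-scaled CPM (vertical axes, each from 0) of the 5 genes past the threshold and of 3 companions, in the 6 libraries by genotype. Circles are the female and triangles the male libraries. The het libraries alone are high for Rn7s1, at 91.6 and 153 CPM, and the companions are Rn7s2, a copy of Rn7s1, and Satb1 and Tmem267, neighbours of Gm37176 and 4833420G17Rik.

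Rn7s1 had the largest fold of the 5 genes. It is 1 of the genes for the RNA of the signal recognition particle, the complex that brings ribosomes making secreted proteins to the endoplasmic reticulum (chromosome 12, 69159295 to 69159594). Its counts were 880 and 1637 in het, 64 and 72 in UTRmut and 57 and 56 in WT. The het libraries stood far above the other 4, and UTRmut lay close to WT. The log2 fold was -4.29 (SE 0.20), and Rn7s1 fell in UTRmut relative to het (edgeR, Benjamini-Hochberg adjusted p = 1.0e-04). It stayed past the threshold without each library in turn, and missed it with the 4 libraries alone and no block (adjusted p = 0.707 by edgeR with Benjamini-Hochberg; over 14 alternatives 2.82e-252 to 1).

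A second gene of the same RNA, Rn7s2 (chromosome 12, 69361182 to 69361481), limits this result, because the annotated transcripts of the pair are identical over all 300 bases. The first 30 bases of each are shown, from the GENCODE transcripts of GRCm38, 5' to 3', to make the identity visible.
Rn7s1: gccgggcgcggtggcgcacgcctgtagtcc
Rn7s2: gccgggcgcggtggcgcacgcctgtagtcc
A read from within either transcript therefore matches both. Rn7s2 had 325 and 394 counts in het and 347 and 348 in UTRmut, with a log2 fold of -0.18 (SE 0.31). With the counts of the pair added, het had 1205 and 2031, UTRmut 411 and 420 and WT 611 and 352. For the sum the log2 fold was -2.08 (SE 0.47), short of the threshold (unadjusted p = 0.0223, adjusted p = 1 by edgeR with Benjamini-Hochberg). The het libraries were still the highest of the 6. The sum was chosen after seeing the data.

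Both genes that rose are ribosomal RNAs, a class that library preparation removes to a varying degree. CT010467.1 is a nuclear ribosomal RNA model (chromosome 17, 39846353 to 39848827). It had 1528 and 1207 CPM in het and 2649 and 1980.5 in UTRmut, beside 1469 and 1327 in WT. Both UTRmut libraries were above the other 4. The log2 fold was 0.76 (SE 0.08; edgeR, Benjamini-Hochberg adjusted p = 0.00441), and the call was lost without either het library (0.395 and 0.875) and without the block (0.9999; lowest of 13 alternatives 2.48e-27). The log2 fold under these settings was 0.79, 0.73 and 0.76. The gene mt-Rnr1 encodes the small ribosomal RNA of mitochondria (chromosome M, 70 to 1024). It had 4456 and 4299.98 CPM in het, 6532 and 8547 in UTRmut and 3819 and 4383 in WT, again with the UTRmut libraries highest. Its log2 fold of 0.77 (SE 0.09) was at the edge of the threshold (edgeR, Benjamini-Hochberg adjusted p = 0.0499) and missed it with TMM factors from protein-coding genes (0.0594), without the block (0.529), and without the het female, het male or UTRmut male (0.0724, 1 and 0.0522; lowest of 13 alternatives 7.80e-34). The log2 fold was 0.76 and 0.78 in the first pair of settings and 0.95, 0.60 and 0.62 in the others.

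The large mitochondrial ribosomal RNA, mt-Rnr2, was measured separately. It had 52677 and 45869.6 CPM in het and 57751 and 81952 in UTRmut, a log2 fold of 0.49 (SE 0.18) that missed the threshold. The male UTRmut library stood apart from the others: mitochondrial ribosomal RNA took 8.69% of its counts, against 6.31% in the female UTRmut library, 5.78% and 5.07% in het and 4.95% and 5.23% in WT. Nuclear ribosomal RNA took 0.261% and 0.191% of counts in UTRmut and 0.156% and 0.123% in het. The part that depletion of ribosomal RNA had in the 2 calls was not tested. The messenger RNAs of the mitochondrial genome, which code for subunits of the respiratory chain, had a smaller difference. Of these 8 of 10 tested had a positive log2 fold and the median was 0.20. The lowest p among them belonged to mt-Nd1 and mt-Cytb, with 0.20 (SE 0.07) and 0.22 (SE 0.08), and neither passed.

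Gm37176, the third gene past the threshold by p, lies in a cluster of TEC models (annotated from sequenced RNA and still to be experimentally checked) around Satb1, the gene of a chromatin organiser of cortical neurons. Gm37176 (chromosome 17, 51859167 to 51863217) starts 25.9 kb upstream of Satb1 and on the opposite strand. Its counts were 84 and 89 in het, 17 and 19 in UTRmut and 39 and 26 in WT. The UTRmut libraries were below and the het libraries above all others. The log2 fold was -2.39 (SE 0.30; edgeR, Benjamini-Hochberg adjusted p = 0.0248). The call was lost without any 1 of the het or UTRmut libraries (edgeR, Benjamini-Hochberg adjusted p = 0.0522 to 0.939), while the log2 fold stayed at -2.57 to -2.20.

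Its neighbours in the cluster were named after their values were seen. Gm37266, between Gm37176 and the Satb1 start, had 55 and 69 counts in het and 15 and 12 in UTRmut. Gm37593, closer to the start, had 100 and 99 in het and 36 and 45 in UTRmut. Their log2 folds were -2.33 (SE 0.37) and -1.42 (SE 0.26), short of the threshold (adjusted p = 0.13 and 0.396 by edgeR with Benjamini-Hochberg). All 9 tested TEC models within 0.5 Mb of the Satb1 start had negative log2 folds. They ran from -0.32 in Gm37248, within the body of Satb1, to that of Gm37176, and 6 of the 9 had an unadjusted p under 0.05, against 3.53% of all genes and 8.62% of TEC models. In 8 of the 9 both UTRmut libraries were below both het libraries, where 17.9% of all genes and 355 of the 1183 TEC models did so. Gm37176, chosen for its difference, is among the 8. Satb1 itself did not share the difference. It had 199.6 and 178 CPM in het and 205 and 177 in UTRmut, with a log2 fold of 0.02 (SE 0.09). Models that overlap Satb1 can share reads with its introns, and the strand setting of the counting is not given in the sources used here.

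**Figure D2:**
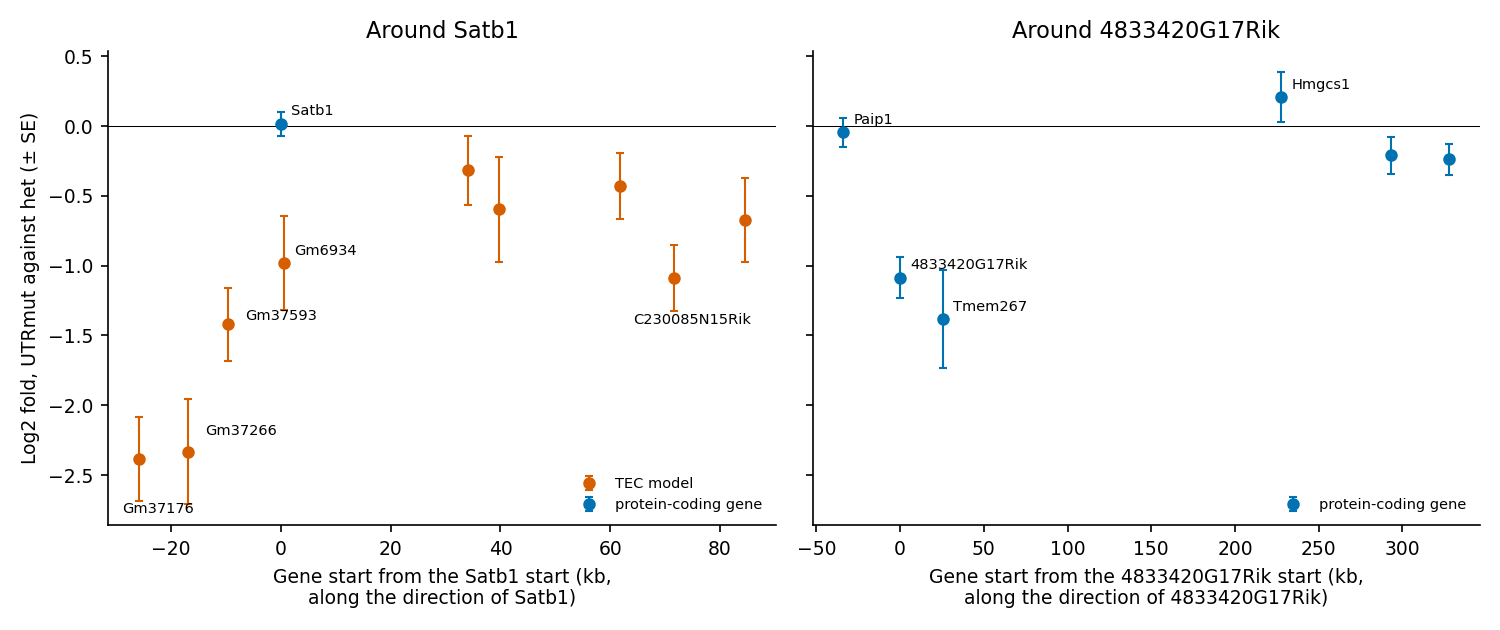
Log2 fold of UTRmut against het (vertical axis, bars are SE) by the start of each tested gene within 0.5 Mb, in kb from the start of Satb1 (left) or 4833420G17Rik (right) along the direction of that gene. Orange points are TEC models and blue points protein-coding genes. The 9 TEC models lie below 0 while Satb1 lies at 0.02, and on the right 4833420G17Rik and Tmem267 lie near or below -1 while their neighbours lie between -0.24 and 0.21.

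4833420G17Rik is the only gene annotated as protein-coding among the 5, a gene without an assigned function (chromosome 13, 119462768 to 119486120). It had 279 and 324 counts in het, 127 and 187 in UTRmut and 193 and 296 in WT. The UTRmut libraries were the lowest of the 6. The log2 fold was -1.09 (SE 0.15; edgeR, Benjamini-Hochberg adjusted p = 0.0376), and the call was lost without any 1 of the het or UTRmut libraries (edgeR, Benjamini-Hochberg adjusted p = 0.092 to 0.9996) and without the block (0.236; lowest of 13 alternatives 7.62e-14). Its log2 fold without each of these 4 libraries was -1.29 to -0.89, and without the block -1.07. Tmem267, a gene of a membrane protein, starts just beyond its end on the same strand (chromosome 13, 119488039 to 119611059). It had 59 and 50 counts in het, 22 and 24 in UTRmut and 24 and 53 in WT, so that the UTRmut libraries were again lowest, level with the WT female. The difference of -1.38 (SE 0.35) on the log2 scale missed the threshold (unadjusted p = 0.00222, edgeR). The other tested genes within 0.5 Mb had smaller differences. Paip1, which binds the poly(A)-binding protein in translation, had a log2 fold of -0.05 (SE 0.11), and Hmgcs1, an enzyme of sterol synthesis, 0.21 (SE 0.18). Nim1k and Zfp131, farther along, had -0.21 (SE 0.13) and -0.24 (SE 0.11). In 4 of the 6 tested genes, these 2 among them, both UTRmut libraries were below both het libraries, against 17.9% of all genes. 4833420G17Rik and Tmem267, both chosen for their difference, are also among the 4.

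TEC models were mostly negative as a class: 925 of 1183 tested had a negative log2 fold (78.2%, against 50.2% of all genes), with a median of -0.25. The medians were -0.33 in the females and -0.17 in the males. At an unadjusted p under 0.05 there were 99 lower (8.37%, against 2.29% of all genes) and 3 higher (0.254%, against 1.24%). The median was -0.11 without the UTRmut female and -0.40 without the UTRmut male. Sense intronic transcripts, 101 of 142 of them negative, had a median of -0.22, lincRNAs had -0.09 (218 of 364 negative), and the 13340 protein-coding genes had 0.01. The nuclear and structural noncoding RNAs that were listed by name had negative log2 folds in 10 of 10 tested, with a median of -0.30. For this list the medians were -0.40 in the females and -0.18 in the males. Over 13 alternative settings the median ran from -0.46 to -0.08. In 9 of these RNAs both UTRmut libraries were below both het libraries, against 17.9% of all genes. Rn7s1 is the only one that passed.

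Several of the listed RNAs are known to stay in the nucleus. Malat1, an abundant RNA of nuclear speckles, had 13823 and 12107 CPM in het and 10281 and 10873 in UTRmut (log2 fold -0.28, SE 0.12). Rian and Mirg, noncoding RNAs of the imprinted Dlk1-Dio3 region, had -0.21 (SE 0.09) and -0.39 (SE 0.11), and Kcnq1ot1, the imprinted antisense RNA of Kcnq1, had -0.36 (SE 0.10). Kcnq1ot1 levels were 395 and 307 CPM in het, 276 and 266 in UTRmut and 407 and 290.01 in WT. For Malat1, Rian and Kcnq1ot1 the WT male library was below the male het library, and the WT female library was close to the female het library. TEC models took 0.68% and 0.523% of counts in het, 0.521% and 0.452% in UTRmut and 0.751% and 0.477% in WT, so the share differed between the WT libraries by more than between the genotypes within a sex. The part of the library preparation or of RNA quality in this pattern was not tested.

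**Figure D3:**
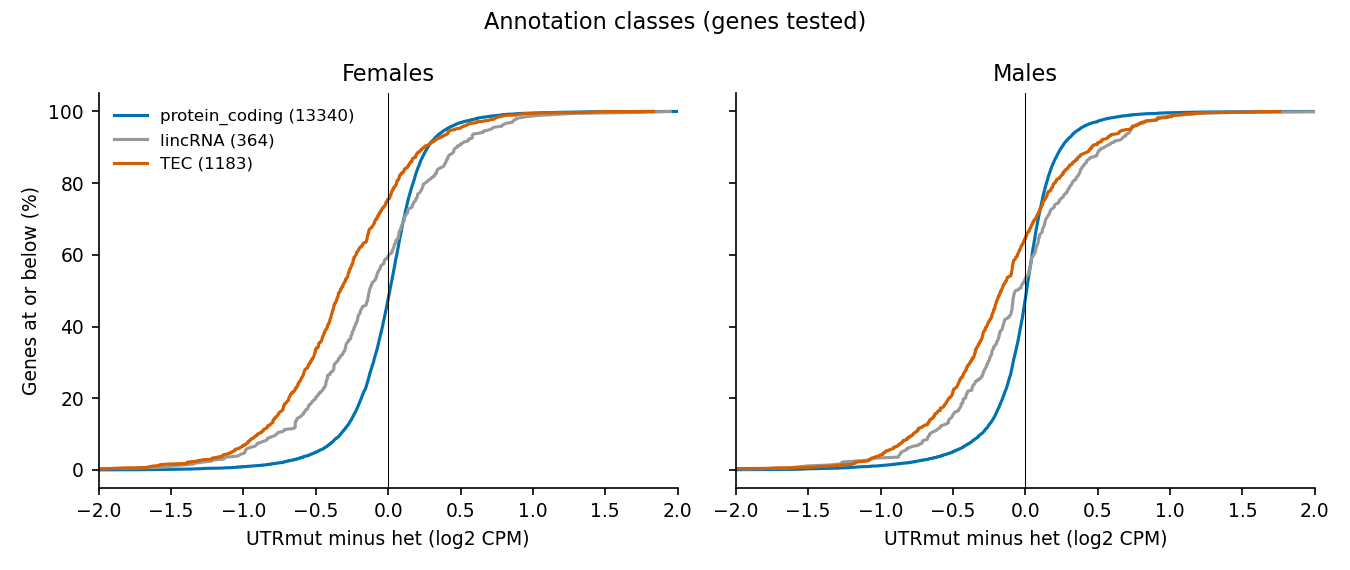
Cumulative share of tested genes (vertical axis, percent) by the difference in log2 CPM between UTRmut and het (horizontal axis), in the female pair (left) and the male pair (right), for protein-coding genes, lincRNAs and TEC models. The TEC curve lies left of the protein-coding curve through the middle of its range in both sexes, with medians of -0.33 in the females and -0.17 in the males.

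The sexes shared little of the difference between the genotypes. Across the 16119 genes, 52.8% had the same sign in the female and the male pair. The correlation of the differences across genes was Pearson's r = 0.08 and Spearman's rho = 0.06, and r = 0.12 for the 9701 genes with a mean of at least 10 CPM. Genes are not independent replicates and each pair is 1 library against 1, so these are descriptions of 4 libraries. The median absolute difference was 0.16 on the log2 scale in the females and 0.13 in the males. The 5 genes past the threshold had the same sign in both sexes. The difference was -3.90 in the females and -4.57 in the males for Rn7s1, -2.33 in the females and -2.21 in the males for Gm37176 and -1.28 in the females and -0.89 in the males for 4833420G17Rik. It was 0.79 in the females and 0.71 in the males for CT010467.1 and 0.55 in the females and 0.99 in the males for mt-Rnr1. The test that selected them needs the pairs to be alike, so the shared sign is no separate evidence.

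**Figure D4:**
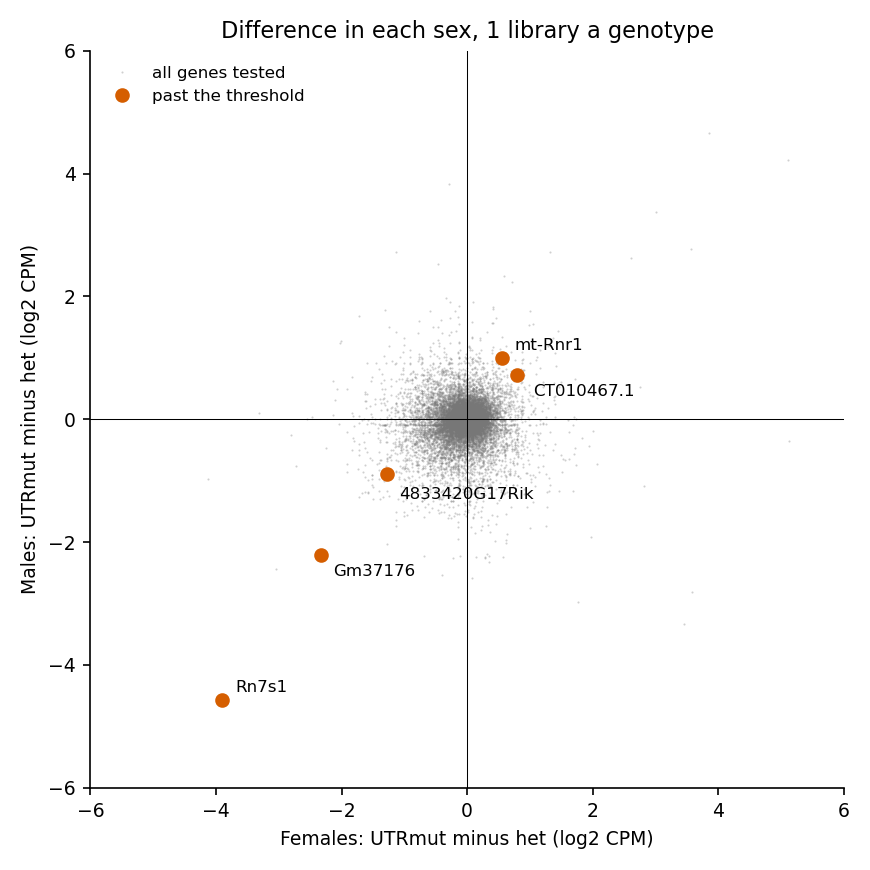
Difference in log2 CPM between the UTRmut and the het library of the females (horizontal axis) and of the males (vertical axis) for all 16119 genes tested (grey) and the 5 past the threshold (orange). The grey cloud has no clear slope (Pearson's r = 0.08), and Rn7s1 and Gm37176 lie far out in the lower left.

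Beyond the 5 genes, the next in order of p whose het and UTRmut libraries did not overlap were named, and each had an adjusted p of 0.9995 (edgeR, Benjamini-Hochberg). Not overlapping is common in groups of 2: it held for 34.3% of all genes, 16.4% higher and 17.9% lower. Whether these genes passed depended on the fit. They were chosen by p and by not overlapping in these same libraries, so a call in another fit of them is no separate evidence. Each fit without 1 library has 1 residual degree of freedom, as does that of the 4 libraries with the block, whether it called many or none. Of the 19, the count called by edgeR was 14 with the 4 het and UTRmut libraries and the block, 15 without the WT female and 16 without the WT male, fits with 1 residual degree of freedom each. It was 4 without a filter on low counts, and 0 in the other 9 alternatives, among them the 4 libraries without the block, DESeq2 and the fits without any 1 het or UTRmut library. With the 4 libraries the Benjamini-Hochberg adjusted p of edgeR over the 19 was 5.61e-04 (Dusp1) to 0.186 with the block and 0.204 to 0.892 without it. The 14 were Rasl11b, Scoc, Unc5d, Dusp1, Rorb, Zfpm2, Enpp6, Tmem267, Adam12, Id3, Gjc3, C1ql2, Mirg and Kcnq1ot1. Over all genes, the fit of the 4 libraries with the block called 67 of 15710. The 10 on the higher side had log2 folds of 0.30 to 1.48. Several are known from neurons and their surface. Unc5d, a receptor of axon and cell guidance, had 109.9 and 119.8 CPM in het and 135 and 149 in UTRmut (log2 fold 0.30, SE 0.09). Rtn4rl1, a receptor of the Nogo family that restrains axon growth, had 57.4 and 60.8 in het and 70.2 and 78.2 in UTRmut (log2 fold 0.33, SE 0.10). Rorb, a nuclear receptor that marks the layer where thalamic input arrives, had 108 and 113 in het and 149.99 and 128 in UTRmut (log2 fold 0.32, SE 0.10). Rorb in WT, at 130.1 and 118 CPM, was above both het libraries and overlapped UTRmut.

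Others on the higher side act in signalling and metabolism. Dusp1, a phosphatase of MAP kinases that is induced by activity and stress, had 42.8 and 41.4 CPM in het, 52.8 and 67.9 in UTRmut and 60.9 and 50.3 in WT (log2 fold 0.52, SE 0.14), so the WT levels overlapped those of UTRmut. Hsd11b1, the enzyme that regenerates active glucocorticoid, had 17.5 and 15.1 in het and 23.3 and 22.3 in UTRmut (log2 fold 0.48, SE 0.14). Cd38, an enzyme that consumes NAD, was low, at 1.15 and 1.68 in het and 3.36 and 3.22 in UTRmut (log2 fold 1.21, SE 0.35). Rasl11b, a small GTPase of the Ras family, Scoc, a coiled-coil protein of the Golgi and autophagy, and Cotl1, an actin-binding protein, had log2 folds of 0.41, 0.48 and 0.39. Ptgs2os, a transcript on the strand opposite to the prostaglandin synthase gene Ptgs2, had a log2 fold of 1.48 (SE 0.44), and Ptgs2, which is induced by activity, had 0.59 (SE 0.43). Reads of the pair cannot be told apart if strand was not used in counting.

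On the lower side, the 9 named genes that did not pass had log2 folds of -1.38 to -0.36. Of these, 2 are genes of oligodendrocytes. Enpp6, a choline phosphodiesterase of newly forming oligodendrocytes, had 14.3 and 16.8 CPM in het, 10.1 and 9.31 in UTRmut and 15.4 and 13.99 in WT (log2 fold -0.68, SE 0.17). Gjc3, a connexin of myelinating glia, had 26.6 and 24.8 in het and 18.02 and 18.6 in UTRmut (log2 fold -0.49, SE 0.13). Both UTRmut libraries were the lowest of the 6 for each. In bulk tissue, fewer cells of a type and less RNA per cell cannot be told apart. The whole list of oligodendrocyte genes had 11 of 15 negative and a median of -0.07, with -0.14 in the females and 0.07 in the males, and summed levels of 3954 and 4044 CPM in het and 3298 and 4288 in UTRmut.

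The remaining genes on that side had mixed roles. Adam12, a metalloprotease-disintegrin that sheds growth factors from the cell surface, had 6.56 and 6.54 CPM in het, 3.83 and 2.70 in UTRmut and 4.34 and 4.32 in WT (log2 fold -1.01, SE 0.26). Here het stood above the other 4 libraries. Zfpm2, a cofactor of GATA factors, had 33.4 and 29.1 in het and 19.7 and 21.6 in UTRmut (log2 fold -0.59, SE 0.14), with WT at 32.9 and 26.4. Id3, an inhibitor of DNA binding by basic helix-loop-helix factors, had -0.60 (SE 0.16), and C1ql2, a synaptic organiser best known from the dentate gyrus, -1.13 (SE 0.31). Over the 12 genes named on each side, the WT mean was nearer to het than to UTRmut in 9 of the higher and 6 of the lower ones.

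The metalloproteinase system was listed by role, with the lists chosen with earlier results of these data known. Of 17 matrix metalloproteinases 8 were expressed highly enough to test, 4 of 8 had a positive log2 fold, and the median was -0.05 (all genes: 0.00). None passed in any list of this and the following paragraphs except mt-Rnr1 and Rn7s1. Mmp14, a membrane-bound proteinase that activates the proenzyme of Mmp2, had 9.68 and 10.4 CPM in het, 5.98 and 7.31 in UTRmut and 5.88 and 5.27 in WT (log2 fold -0.59, SE 0.21). The het libraries stood above the other 4. Mmp2, the second gelatinase, had 1.98 and 2.99 in het and 1.68 and 1.13 in UTRmut (log2 fold -0.82, SE 0.40), with the male het library highest.

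The inhibitors showed no common direction. Timp2 had 172 and 153 CPM in het and 160.4 and 166 in UTRmut (log2 fold 0.01, SE 0.09). Timp3, which binds to matrix, had 55.8 and 71.3 in het and 69.9 and 51.95 in UTRmut. For Timp4 the levels were 21.7 and 20.1 in het and 20.4 and 26.98 in UTRmut. In each of the 3 the sexes differed in sign, with 0.33 in the females and -0.45 in the males for Timp3. Timp1, an inhibitor known to bind the Mmp9 proenzyme, was too scarce to pass the filter, at 9 and 6 counts in het and 8 and 7 in UTRmut. Reck, a membrane-anchored inhibitor, had 6.04 and 6.35 CPM in het and 5.88 and 4.003 in UTRmut (log2 fold -0.34, SE 0.25).

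Proteases upstream and proteins cut by the enzyme were close to the background. In the list of plasminogen activators, serpins and ADAM sheddases 8 of 14 were positive (median 0.03). Adam17, the sheddase of tumour necrosis factor, had 24.8 and 27.3 CPM in het and 21.1 and 20.5 in UTRmut (log2 fold -0.32, SE 0.13). Of the reported substrates 12 of 21 were positive (median 0.02). Tnc, a matrix glycoprotein that is both a reported substrate and a member of the net around neurons, had 11.9 and 12.2 CPM in het and 8.69 and 7.40 in UTRmut (log2 fold -0.58, SE 0.21). The perineuronal net and lectican list had 7 of 15 positive and a median of -0.01. For Acan, the aggrecan core protein of the net around fast-spiking cells, the counts were 77 and 78 in het and 90 and 95 in UTRmut (log2 fold 0.12, SE 0.26).

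Genes induced by neuronal activity had mostly positive log2 folds. Of the immediate-early transcription factors 19 of 22 had log2 folds above 0 (median 0.17), and of the activity-regulated effectors 27 of 30 (median 0.14). Above 0 were 49.8% of all genes. The lists had 0 and 2 members (6.67% of the latter) with an unadjusted p under 0.05, against 3.53% of all genes, and no member passed. Fos had 130.2 and 159 CPM in het and 141 and 190.4 in UTRmut. Npas4, a factor that neurons induce on calcium entry, had 33.1 and 45.96 in het and 43.5 and 48.3 in UTRmut. Both overlapped between the groups. Arc, a postsynaptic protein that acts in receptor traffic, had 863 and 874 CPM in het and 1105 and 976 in UTRmut (log2 fold 0.27, SE 0.41), and Bdnf, a neurotrophin, 74.5 and 68.8 in het and 81.8 and 75.02 in UTRmut (log2 fold 0.13, SE 0.33).

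The WT female library was the lowest of the 6 for the activity genes, with a summed level of the effectors of 2838 CPM against 4215 to 4807 in the other 5. It had no weight in the contrast. The medians of the effectors were -0.04 without the UTRmut female, 0.00 without the het male, 0.30 without the het female and 0.28 without the UTRmut male. Those of the immediate-early factors were 0.04, 0.01, 0.30 and 0.11. The critical period and plasticity list had 9 of 14 positive and a median of 0.10.

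Synaptic genes had small positive medians. Of the AMPA and NMDA receptor and scaffold genes 20 of 24 were positive (median 0.07), and of the presynaptic genes 15 of 18 (median 0.08). Without the UTRmut female these medians were 0.02 and 0.05, and without the het male 0.03 and 0.02. They were 0.13 and 0.14 without the het female, and 0.12 and 0.11 without the UTRmut male. Syp, the vesicle protein synaptophysin, had 901 and 968 CPM in het and 973 and 1115 in UTRmut (log2 fold 0.16, SE 0.07), and Rims1, an organiser of the release site, 317 and 313 in het and 375 and 345 in UTRmut (log2 fold 0.19, SE 0.08). The largest log2 fold in the postsynaptic list, 0.44 (SE 0.36), belonged to Dlg4, the scaffold protein of the postsynaptic density, and was chosen after its values were seen. Dlg4 had 4084 and 2268 counts in het, 4916 and 4353 in UTRmut and 4258 and 5517 in WT, so that the male het library alone was low. Of the serotonin receptors 7 of 11 were positive (median 0.07), and Htr2c, a receptor of the choroid plexus and of neurons, had 15.2 and 9.53 CPM in het and 7.004 and 8.88 in UTRmut (log2 fold -0.62, SE 0.24), where the difference was -1.10 in the females and -0.10 in the males.

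Among neuronal types, markers of upper-layer excitatory neurons had the highest median, 0.24, with 12 of 14 positive. An unadjusted p under 0.05 was reached by 4 of the 14 (28.6%, against 3.53% of all genes). Lamp5 had 146 and 161 CPM in het and 176 and 192 in UTRmut (log2 fold 0.26, SE 0.09). Cux1, a homeobox factor of these layers, had 131 and 125 in het and 165 and 137 in UTRmut (log2 fold 0.23, SE 0.10), and Rasgrf2, an exchange factor for Ras, 202 and 225 in het and 257 and 241 in UTRmut (log2 fold 0.22, SE 0.09). The female het library was the lowest of the 6 for Rorb and Rasgrf2. The medians were 0.34 in the females and 0.11 in the males, and the median was 0.05 without the UTRmut female. The list sum was 1060.0 and 1088 CPM in het, 1339 and 1179 in UTRmut and 1157 and 1237 in WT, so that the het libraries were the lowest of the 6.

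Deep-layer markers did not share that direction, with 6 of 14 positive, a median of -0.02 and medians of -0.15 in the females and 0.09 in the males. GABAergic interneuron markers had 12 of 16 positive and a median of 0.04. Gad1, the enzyme that makes GABA, had 310.2 and 330.4 CPM in het and 348 and 346 in UTRmut (log2 fold 0.12, SE 0.08). Markers of tissue next to the visual cortex gave medians of -0.07 for hippocampus (2 of 7 positive) and -0.04 for striatum and thalamus (5 of 11 positive). The part of the dissection in the layer values was not tested.

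Among glial lists astrocytes were near the background, while precursors and microglia were more often negative than all genes (50.2%). Astrocyte markers had 8 of 14 positive (median 0.02), and summed levels of 8829 and 9002 CPM in het and 9675 and 8512 in UTRmut. Only 1 of the 14, Gfap, had groups that did not overlap, against 34.3% of all genes. Gfap, the filament protein of reactive astrocytes, had 109 and 90.98 CPM in het, 78.9 and 78.2 in UTRmut and 70.7 and 90.3 in WT (log2 fold -0.35, SE 0.13), where the female het library was the highest of the 6. Oligodendrocyte precursors had 6 of 8 negative (median -0.07), and microglia and complement 8 of 13 (median -0.11). C1qa, a chain of the complement component that tags synapses, had 28.9 and 31.9 CPM in het and 24.1 and 26.6 in UTRmut (log2 fold -0.26, SE 0.12). Bcas1, a marker of early myelinating cells, had 49.8 and 54.6 in het and 39.5 and 44.8 in UTRmut (log2 fold -0.31, SE 0.10). Genes of proliferating cells and neuroblasts had 4 of 6 negative (median -0.32), and Mki67, a marker of dividing cells, had 16 and 14 counts in het and 1 and 8 in UTRmut.

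Vascular and meningeal genes were mostly negative in the fit and differed between the sexes. The list of meninges and fibroblasts had 11 of 13 negative with a median of -0.36, but medians of 0.16 in the females and -1.20 in the males. Its summed level was 614 and 874 CPM in het, 705 and 389 in UTRmut and 426 and 549.9 in WT, so the male het library was the highest and the male UTRmut library the lowest of the 6. Ptgds, the prostaglandin D synthase of the meninges, contributed most of those counts, with 4510 and 7064 counts in het and 5625 and 3086 in UTRmut. Col3a1, a fibrillar collagen, had 13.8 and 25.2 CPM in het and 12.1 and 8.62 in UTRmut (log2 fold -0.86, SE 0.33). Without the UTRmut male the median of the list was 0.20, without the het male -0.09, without the UTRmut female -1.16 and without the het female -0.73.

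Basement membrane genes had 13 of 15 negative (median -0.14; 0.01 in the females and -0.38 in the males), endothelial and mural cell genes 10 of 14 (median -0.19; 0.04 in the females and -0.29 in the males), and red blood cell genes 6 of 7 (median -0.55). Without the UTRmut male the medians were 0.05 for basement membrane and -0.09 for red blood cells, and without the UTRmut female -0.43 and -1.01. Hba-a1, a chain of haemoglobin, had 49.3 and 55.1 CPM in het, 37.7 and 29.2 in UTRmut and 49.2 and 69.95 in WT (log2 fold -0.64, SE 0.19). The part of meninges and blood left on the tissue in the matrix and protease values, Mmp2 and Mmp14 among them, was not tested. Choroid plexus and ependyma markers were mostly too scarce, with 3 of 10 tested and a median of -0.41. The list sum went the other way in the males: it was 6.97 and 7.19 CPM in het, 4.30 and 11.5 in UTRmut and 4.44 and 50.4 in WT. Ttr, the transthyretin gene of choroid plexus, had 7 and 3 counts in het, 6 and 74 in UTRmut and 2 and 487 in WT, with the WT male the highest library and the UTRmut male next. The part of choroid plexus in the values of those libraries was not tested.

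**Figure D5:**
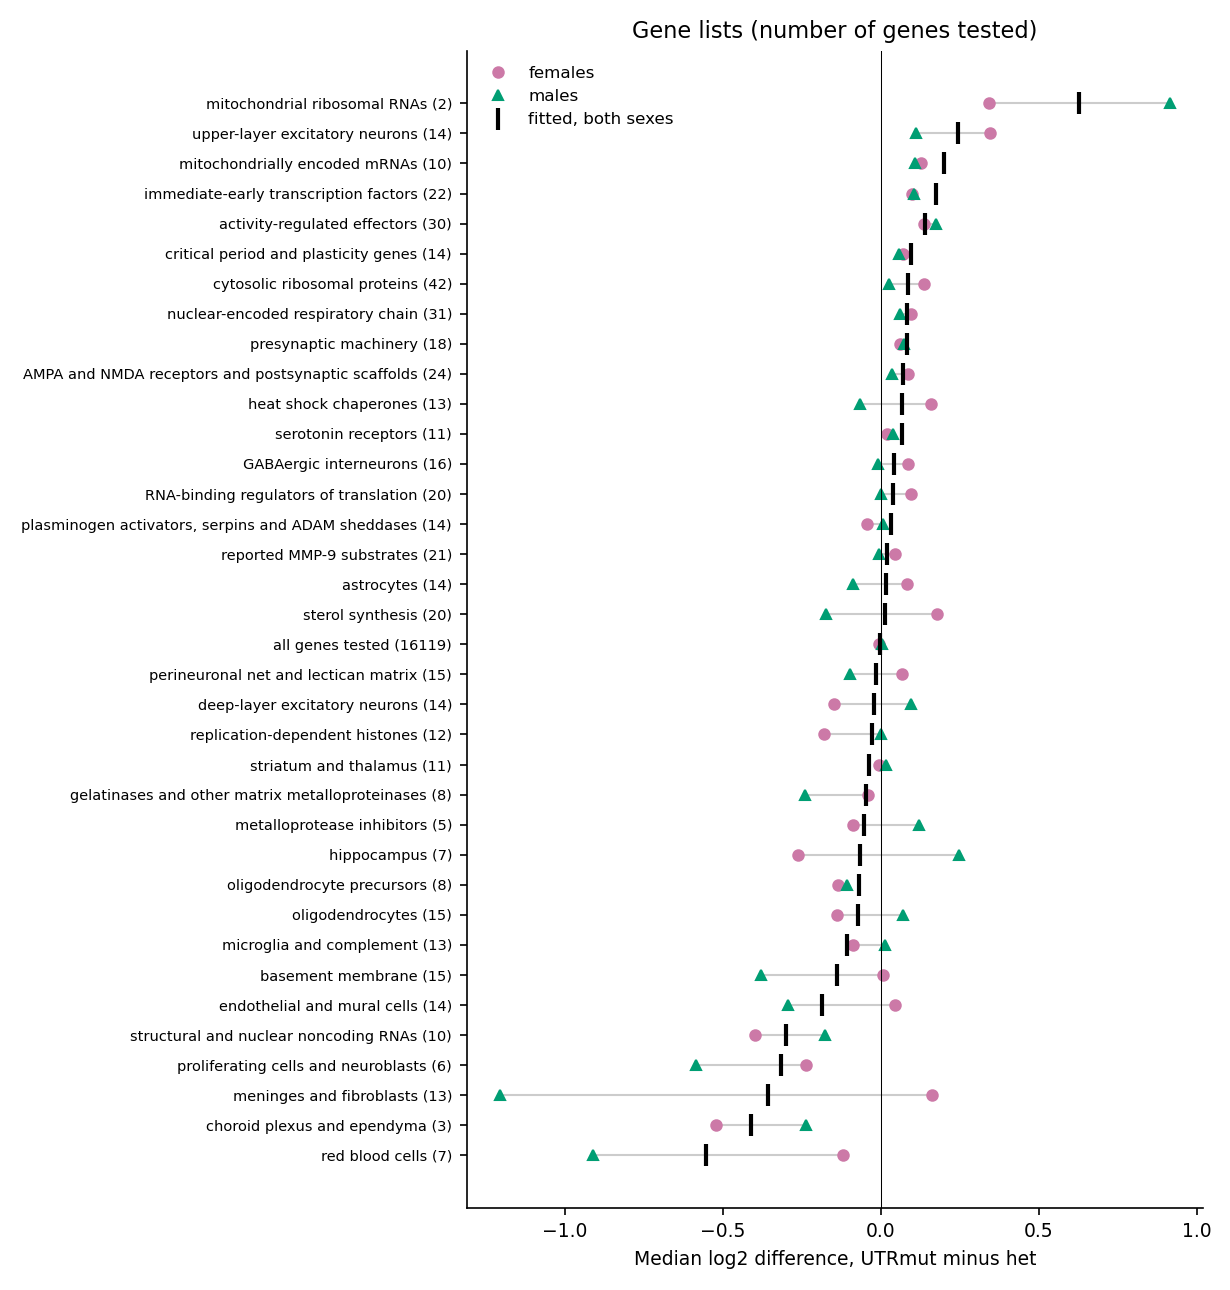
Median log2 difference between UTRmut and het for each gene list (number of tested genes in brackets) and for all genes tested, in the female pair (circles), the male pair (triangles) and the fit over both (black bars). The meninges list spans 0.16 in the females to -1.20 in the males, while the median of all genes tested is -0.01 in the females and 0.00 in the males.

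Genes of protein synthesis and respiration had mostly positive log2 folds of small size. Of the cytosolic ribosomal protein genes 37 of 42 were positive with a median of 0.09, and of the nuclear genes of the respiratory chain 26 of 31 with 0.08. Without the UTRmut female these medians were 0.03 and 0.05, and the first was 0.04 without the het female and 0.13 without the UTRmut male. Rps16, a protein of the small subunit, had 55.2 and 55.9 CPM in het and 66.8 and 71.4 in UTRmut (log2 fold 0.31, SE 0.11). RNA-binding regulators of translation had 15 of 20 positive (median 0.04). Among these, Fmr1, whose protein binds dendritic mRNAs and is known to bind that of Mmp9, had 96.3 and 94.5 CPM in het and 119 and 103 in UTRmut (log2 fold 0.22, SE 0.12), and Cpeb4, a regulator of polyadenylation, 223 and 237 in het and 261 and 256 in UTRmut (log2 fold 0.17, SE 0.08). Heat shock chaperones had 8 of 13 positive (median 0.07), sterol synthesis 11 of 20 (median 0.02) and replication-dependent histones 5 of 12 (median -0.03).

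Several processed pseudogenes had large folds without passing, and were named after their values were seen. Such genes are retrotransposed copies of an mRNA and share most of their sequence with the parent gene. Gm10020, a copy of the ribosomal protein gene Rpl15, had 0 and 2 counts in het, 67 and 78 in UTRmut and 3 and 66 in WT. The ratio of the summed counts of UTRmut to het, scaled to library size, was 66.3 (exact 95% interval 18 to 553, counting error only). The female WT library was near het and the male WT library near UTRmut. Gm7887, a copy of Pcnp, had 1 and 0 counts in het and 17 and 11 in UTRmut, a ratio of 25.6 (4.24 to 1050). Gm8420 had 0 and 0 in het, 14 and 20 in UTRmut and 0 and 10 in WT, at least 5.14-fold higher in UTRmut with a floor of 3 counts per het library.

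The reverse held for Morf4l1-ps1, a copy of a gene of chromatin acetylation complexes, with 13 and 19 counts in het and 0 and 2 in UTRmut, a ratio of het to UTRmut of 17.5 (4.46 to 151). Rpsa-ps10, a copy of the gene for ribosomal protein SA, had the most counts, 502 and 622 in het, 1194 and 1306 in UTRmut and 968 and 692 in WT. The log2 fold, 1.02 (SE 0.19), missed the threshold in edgeR and passed it in DESeq2 (Benjamini-Hochberg adjusted p = 3.44e-04). The parent genes had log2 folds of -0.02 (SE 0.09) for Rpl15, 0.01 (SE 0.09) for Pcnp, 0.19 (SE 0.08) for Morf4l1 and -0.18 (SE 0.13) for Rpsa.

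Few bases separate copy and parent in the 3 pairs compared. Windows of 30 bases are shown from the GENCODE transcripts of GRCm38, 5' to 3', with each base that differs between copy and parent in capitals. Within the sequence that copy and parent share, only reads over such bases can be given to one or the other.
Gm10020: gctcgaagactgggGtacaaggctaagcaa
Rpl15: gctcgaagactgggAtacaaggctaagcaa
Morf4l1-ps1: gtggatgactgggaTttgatcaccagacag
Morf4l1: gtggatgactgggaCttgatcaccagacag
Gm7887: acaccaacatcagcCggaccaaactcctCt
Pcnp: acaccaacatcagcGggaccaaactcctTt
Gm10020 differs from Rpl15 at 2 of its 612 bases and holds a stretch of 410 bases without a difference. Morf4l1-ps1 differs from Morf4l1 at 2 of 969 bases, and Gm7887 from Pcnp at 2 of 537. With each copy added to its parent and the other copies of that gene, the log2 folds were 0.14 (SE 0.09) for the Rpl15 family, 0.19 (SE 0.09) for Rpsa, 0.18 (SE 0.08) for Morf4l1 and 0.03 (SE 0.09) for Pcnp, and none passed (edgeR, Benjamini-Hochberg adjusted p = 1). The counts of these single copies are therefore uncertain.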

How the data were processed

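The authors deposited raw counts of reads for each gene in each library, neither normalised nor pooled, per the file headers. The submitters' processing notes name HTSeq 0.6.0, HISAT2, Trimmomatic 0.39, GATK 4.2.3.0 and build GRCm38, without roles. The sources used here do not give the strand setting or annotation release. Symbols, positions and classes came from GENCODE (GRCm38), which matched 55227 of 55487 identifiers. The other 260 held 0.0162% of counts.

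Genes were kept by filterByExpr by genotype (minimum count 10, total 15) and the test was run in edgeR 4.0.16 under R 4.3.3 (TMM, robust quasi-likelihood F test, genotype plus replicate number, 6 libraries, 2 residual degrees of freedom, Benjamini-Hochberg over all tested genes). DESeq2 1.42.0 was an alternative. SE is the absolute log2 fold over the square root of F, and CPM differences used a prior count of 2. The replicate number is the sex in the labels. Deviations from the group mean correlated at 0.06 between same-numbered het and UTRmut libraries (15602 autosomal genes). On simulated data for this comparison, changes were set only in genes above 10 CPM, at a common dispersion of 0.01 for all 16119 genes. Of these changes, 99% of the 2-fold and 100% of the 4-fold ones were recovered, with 11 of 210 calls false (5.24%). These shares do not give the power for scarcer genes or for genes of larger spread.

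Named were Mmp9, the Timp genes, the 12 genes of smallest p in each direction with non-overlapping groups (pseudogenes, TEC and clone names only if they passed) and up to 4 leaders of each of 36 lists. The contrast, its genes and the lists were chosen with earlier results of these data known. A count of 0 allows up to 3 counts (0.259 to 0.312 CPM). Intervals and floors cover counting error only.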

Additional observations from a re-analysis of the deposited data

Results flagged for a closer look

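The difference between UTRmut and het had opposite signs in the females and the males for Mmp9, Timp2, Timp3 and Timp4 and for the medians of 18 lists. Other genes named above also differed in sign, among them Hmgcs1 (0.41 in the females and -0.02 in the males). Each sex held 1 library per genotype, so none of these differences between the sexes was tested, and 52.8% of all genes tested had the same sign in both. In log2 CPM, Mmp9 differed by -0.27 in the females and 0.62 in the males, Timp2 by -0.10 and 0.12, Timp3 by 0.33 and -0.45, and Timp4 by -0.088 and 0.42.

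Among the lists, the widest gap was in meninges and fibroblasts, with a median of 0.16 in the females and -1.20 in the males. Basement membrane (0.0065 and -0.38) and endothelial and mural cells (0.045 and -0.29) had the same order. Hippocampus had -0.26 and 0.25, sterol synthesis 0.18 and -0.17, deep-layer excitatory neurons -0.15 and 0.09, and heat shock chaperones 0.16 and -0.07. Oligodendrocytes had -0.14 and 0.07, metalloprotease inhibitors -0.088 and 0.12, astrocytes 0.0831 and -0.09, and perineuronal net and lectican matrix 0.067 and -0.10. The gap was 0.18 or less in the others. These were replication-dependent histones (-0.18 and 0.0002), microglia and complement (-0.0889 and 0.0126), RNA-binding regulators of translation (0.10 and -0.0006), GABAergic interneurons (0.0872 and -0.0079), reported substrates of the enzyme (0.0466 and -0.0059), plasminogen activators, serpins and ADAM sheddases (-0.0435 and 0.007) and striatum and thalamus (-0.0043 and 0.02).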

How the results depend on the processing

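The main count was 2 genes higher and 3 lower. Without the replicate block it was 0 and 2 (Rn7s1 and Gm37176 remained, and CT010467.1, mt-Rnr1 and 4833420G17Rik were lost), with 452 genes at an unadjusted p under 0.05. With the 4 het and UTRmut libraries alone it was 28 and 39 with the block and 5 and 5 without it. It was 11 and 16 without a filter on low counts and 1 and 3 with TMM factors from protein-coding nuclear genes. Leaving out each library in turn gave 0 to 45 higher and 2 to 61 lower, highest without either WT library. The cause was not tested. Rn7s1 alone of the 5 was called without each of the 6 libraries. The log2 folds of Mmp9, Timp2, Timp3, Timp4 and Hist1h1e changed sign when a library was left out, with ranges of -0.34 to 0.74, -0.0707 to 0.095, -0.45 to 0.33, -0.11 to 0.45 and -0.43 to 0.0044. No setting moved the median of all genes by more than 0.02. The same replicate number is the sex in the labels, not a shared litter or day. Genes with few counts, Mmp9 among them, were limited by depth.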

Other observations

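The distance between libraries, as the root mean square difference in log2 CPM over the genes tested, was 0.378 between het and UTRmut of the females and 0.361 between those of the males. It was 0.386 between the het libraries and 0.402 between the UTRmut libraries. The WT female and WT male libraries were the farthest apart of the 15 pairs, at 0.467. Unadjusted p-values under 0.05 made up 1.83% of the genes of chromosome 10 and 5.21% of those of chromosome 18, the lowest and highest shares among the autosomes, and 2.99% on chromosome 2, which carries Mmp9.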
